A study of Homo sapiens with 4 samples.

Results

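The replication-dependent histone genes encode the bulk histones that package new DNA. They were taken as the genes whose GENCODE symbol begins with HIST1H, HIST2H, HIST3H or HIST4H, without the 19 pseudogenes of such names. The rule gave 71 genes, of which 29 were listed in all 4 deposited tables and 27 were also reached 1 CPM, the read count of a gene scaled to the total of its library, in at least one of them. These 27, out of 14150 genes at the same filter, are the histone genes described here. Expression was measured by RNA-seq of total RNA from UM-UC-3 cells, a line grown from a human tumour of the bladder, which had received siRNA at 75 nM for 48 h. There was 1 library for each of 4 conditions, which were control siRNA, si-hnRNPK, si-lncRNA-LBCS and si-PTBP1. Each target was hit by a pair of siRNAs. All 4 carry transfected siRNA, the control included, so no library shows untransfected cells.

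A replication-dependent histone gene has no intron in its usual form, and its mRNA ends in a short stem-loop in place of a poly(A) tail. Stem-loop binding protein (SLBP) holds that stem-loop, and the U7 particle cuts the transcript behind it. The mRNAs build up in S phase, when NPAT drives their transcription from the histone gene clusters, and they decay when DNA synthesis stops. H2A, H2B, H3 and H4 form the nucleosome core and H1 binds the linker DNA. hnRNPK and PTBP1 are RNA-binding proteins of the nucleus.

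The stem-loops are shown because they set these mRNAs apart from other mRNAs. A pattern of 16 letters, GGNNCTTNNNAGNNCC, was searched on the sense strand in up to 200 annotated bases after the stop codon. It was found in 15 of the 27 histone genes, 22 to 67 bases after the stop codon, and in 57 of 19684 protein-coding genes of the annotation (0.29%), of which 32 were histone genes of the full set of 71. Of the 12 without a match, 9 had fewer than 26 annotated bases after the stop codon. The other 3 were HIST1H1E, HIST1H4C and HIST1H2BJ, and no match says only that these letters are not in the window. The 15 matches fell into 4 sequences, shown here as DNA on the gene's strand from GENCODE release 29 (GRCh38) with the 16 letters of the pattern in capitals:
HIST2H2BE: caaaGGCTCTTTTCAGAGCCacccac
HIST1H2BD: caaaGGCTCTTTTAAGAGCCacgcat
HIST1H2AG: caacGGCTCTTTTCAGGGCCacccac
HIST1H4H: caaaGGCCCTTTTCAGGGCCgcccac
The HIST2H2BE stem-loop lies on the minus strand at chr1:149886188-149886203 behind the stop codon in the single exon of the only annotated transcript. Its 16 letters were shared by 9 of the 27 histone genes, all of H2A or H2B. In the full set of 71 they also stood in the H3 genes HIST2H3A, HIST2H3C and HIST1H3H. The H3 genes at the filter had 0 annotated bases after the stop codon, so none of them could match. The HIST1H2BD form, on the plus strand at chr6:26158587-26158602, was shared among the 27 with HIST1H2BC. In the full set it also stood in HIST1H2BF, HIST1H3G and HIST3H3. The HIST1H4H form, on the minus strand at chr6:26285131-26285146, was found in 3 H4 genes of the 27. The HIST1H2AG form, on the plus strand at chr6:27133515-27133530, was found in that gene alone among the 27.

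Coverage of the family in the tables was uneven. At the filter were 4 of 6 H1 genes, 7 of 17 H2A genes, 9 of 18 H2B genes, 3 of 15 H3 genes and 4 of 15 H4 genes. By gene cluster these were 18 of 55 genes named HIST1, 6 of 12 named HIST2, 2 of 3 named HIST3 and the only HIST4 gene. Another 2 genes, HIST1H1A and HIST1H1T, were listed in all 4 tables with 1 to 12 reads each and stayed below the filter, and 5 were listed in 1 to 3 tables with at most 4 reads. For the remaining 37 no row carried the identifier used by GENCODE release 29, and they are not analysed here. Statements on a class therefore cover only its members at the filter, most of all for H3 and H4.

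Sequencing depth was 54301152 to 70232674 reads on listed genes per library, so that 3 reads corresponded to 0.0427 to 0.0552 CPM. HNRNPK was at 783 CPM in control and 188 CPM in si-hnRNPK (23.98%), and PTBP1 at 280.0 CPM in control and 89.7 CPM in si-PTBP1 (32.0%). Both siRNA sequences of si-lncRNA-LBCS matched AL022068.1 (ENSG00000228412) and no other annotated gene. That gene was at 1.79 CPM in control and 1.47 CPM in the library named for its knockdown, 81.8% of control with a 95% interval of 61.9 to 108%, so a fall of the target was not detectable at this depth, and si-lncRNA-LBCS is used below as a label only. Its level was 3.43 CPM in si-hnRNPK and 3.82 CPM in si-PTBP1. All 4 mesenchymal markers were at 1 CPM or more, with summed levels of 1666 to 2572 CPM per library, as were 5 of 14 urothelial and epithelial markers (155 to 219 CPM), 0 of 5 white blood cell markers, 0 of 3 endothelial markers and 1 of 3 fibroblast markers. The urothelial and epithelial markers that reached 1 CPM were KRT8, KRT18, KRT7, PPARG and TP63, while UPK1B and UPK2, which define urothelium, stayed below it and UPK3A and CDH1 were listed in no table. FN1, a mesenchymal marker, was at 57.2 CPM in control, 189 in si-hnRNPK, 78.0 in si-lncRNA-LBCS and 211 in si-PTBP1. The 4 mesenchymal markers did not move as one, since 2 were below control in si-hnRNPK, 2 in si-lncRNA-LBCS and 1 in si-PTBP1. The part of the FN1 change in the histone levels was not tested. RNA without a poly(A) tail was in the libraries: 7SK, a small nuclear RNA, took 3.86 to 4.39% of the reads.

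In the si-hnRNPK library every one of the 27 histone genes was listed below its control level. For 25 of them the counting interval excluded equality, and the share of all genes for which it did so was not counted. The difference in log2(CPM + 1) was -1 or lower, the size used here to call a change, for 15 of the 27. Of all 14150 genes 3.8% were lower by that much. No histone gene was higher by 1 or more, against 3.42% of all genes. The median change of the histone genes was -1.11 and that of all genes -0.10. Summed over the 27 genes, histone mRNA was at 10837 CPM in control, or 1.08% of all reads, and at 4585 CPM in si-hnRNPK, or 0.459%. The sum in si-hnRNPK was 42.3% of control, with a 95% exact interval of 42.1 to 42.5%. Such intervals here come from the reads of both libraries and cover counting error only. There is no spread between cultures to hold a difference against, and no p-value is given. In bulk RNA, fewer cells in S phase and less histone mRNA per cell cannot be told apart.

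At 1.5-fold or more, 22 of the 27 histone genes were lower in si-hnRNPK, against 15.4% of all genes, and at any size 27 of 27 against 58.3%. The si-hnRNPK library held the lowest of the 4 levels for 24 of the 27, and for 43.6% of all genes. With the geometric mean of the other 3 libraries as the reference in place of control, 8 of the 15 calls remained. Median-of-ratios scaling, which put the si-hnRNPK library 0.11 lower on the log2 scale than control, left 14 of the 15, and under it HIST3H2A alone was no longer below control.

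**Figure D1:**
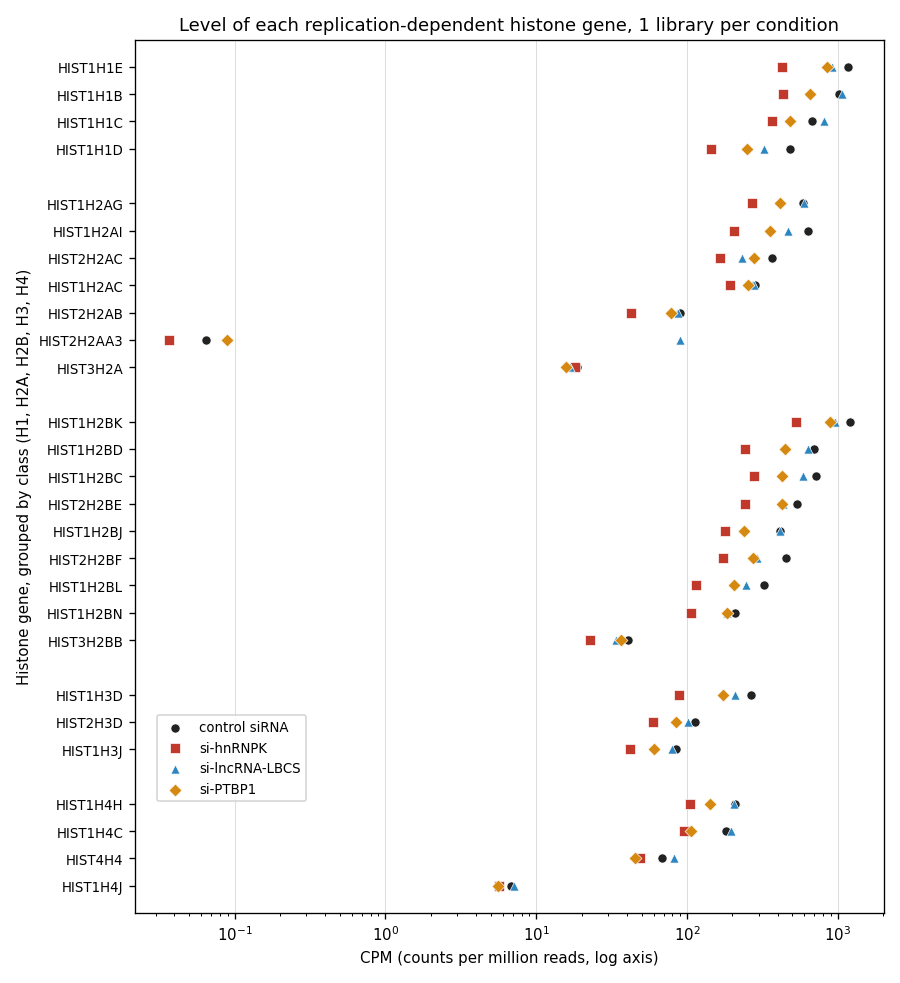
CPM (log axis) of each of the 27 histone genes in the 4 libraries, 1 point per library, grouped by class. The red squares of si-hnRNPK are the lowest point for 24 of the 27 genes, and HIST2H2AA3 stands apart with 90.2 CPM in si-lncRNA-LBCS alone.

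The H1 genes encode the linker histones, and the 4 at the filter took 30.9% of the summed histone CPM in control. HIST1H1E (H1.4) was at 1172 CPM in control, 424 in si-hnRNPK, 919 in si-lncRNA-LBCS and 844 in si-PTBP1. HIST1H1B (H1.5) was at 1024, 433, 1067 and 655 CPM in the same order, the order kept for every gene below. HIST1H1C (H1.2) was at 672, 367, 805 and 484 CPM. HIST1H1D (H1.3) was the lowest of the class at 482, 145, 325 and 249 CPM and showed the largest change of all 27 genes in si-hnRNPK, to 30.1% of control (29.4 to 30.9%). All 4 were lowest in si-hnRNPK, and their changes there were -1.46 for HIST1H1E, -1.24 for HIST1H1B, -0.87 for HIST1H1C and -1.72 for HIST1H1D. HIST1H1C was thus the only H1 gene that did not reach the threshold, and it was also the H1 gene listed highest above control in si-lncRNA-LBCS, at 120% (118 to 121%). In si-PTBP1 the class lay between -0.95 for HIST1H1D and -0.47 for HIST1H1C.

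Of the 7 H2A genes, 4 were lower by 1 or more in si-hnRNPK. HIST1H2AI was at 634, 203.5, 469 and 356 CPM and HIST1H2AG at 585, 270.3, 597 and 416 CPM. Both encode the same H2A protein, and their changes in si-hnRNPK were -1.63 and -1.11. HIST2H2AC was at 366, 165, 230.2 and 278 CPM (-1.15 in si-hnRNPK), and its change of -0.67 in si-lncRNA-LBCS was the largest fall of any histone gene there. HIST2H2AB, at 89.8, 42.5, 86.5 and 78.0 CPM, sat just inside the threshold at -1.06, and is the call that median-of-ratios scaling took away. HIST1H2AC, at 280.3, 191, 279 and 253 CPM, reached only -0.55. HIST3H2A was low throughout, at 18.8, 18.1, 16.7 and 15.8 CPM, and its level in si-hnRNPK was 96.2% of control with an interval of 88.3 to 105%, which spans no difference. So within one class the change in si-hnRNPK ran from 32.1% to 96.2% of control among genes with 884 reads or more in each library.

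HIST2H2AA3 was unlike every other histone gene. It had 4 reads in control, 2 in si-hnRNPK and 5 in si-PTBP1, but 6333 in si-lncRNA-LBCS, which is 0.0652, 0.0368, 0.0892 and 90.2 CPM. Its level in si-lncRNA-LBCS was 1384-fold that of control, with a counting interval of 540 to 5079. It was the only gene of the tables at 20 CPM or more in that library and over 10-fold above control. HIST2H2AA3 reached 1 CPM in that library alone, so it entered the set only through this value. The coding sequence of HIST2H2AA3 is identical to that of HIST2H2AA4, a neighbouring copy that is not analysed here, and 100% of its 100-base windows occur in that copy. How reads of the copies were divided is not given in the sources used here, so its value is uncertain. Without it, 26 of 26 histone genes remained below control in si-hnRNPK, with a median of -1.13.

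The H2B genes were the largest class by reads, with 9 at the filter and 42.3% of the summed histone CPM in control. HIST1H2BK was at 1199.6, 525, 959 and 889 CPM, the highest of the class in each library, and HIST1H2BC at 712, 277, 585 and 429 CPM. HIST1H2BD was at 699.8, 244, 633 and 445 CPM, and at 34.8% of control (34.1 to 35.5%) it changed most among the H2B genes in si-hnRNPK. HIST2H2BE was at 532, 241, 435 and 425 CPM, and HIST2H2BF at 453, 172, 293 and 273 CPM. These 5 genes, from 2 chromosomes, kept the same picture, with si-hnRNPK lowest and control highest in each. HIST1H2BJ was at 415, 178, 412 and 237 CPM, and HIST1H2BL at 326, 114, 247 and 205 CPM. HIST1H2BJ was at 99.1% of control in si-lncRNA-LBCS (97.5 to 100.8%) but at 57.2% in si-PTBP1 (56.0 to 58.4%). HIST1H2BN (209.6, 106, 183 and 185 CPM) and HIST3H2BB (40.4, 22.7, 34.0 and 36.6 CPM) were the H2B genes that missed the threshold in si-hnRNPK, at -0.98 and -0.80. The other 7 changed by -1.14 for HIST2H2BE to -1.52 for HIST1H2BD, so every H2B gene was at 56.2% of control or less. HIST1H2BN overlaps HIST1H2AK and HIST1H2AL in the annotation, and its reads may include theirs.

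Among the H3 genes, HIST1H3D was at 265, 87.9, 207 and 172 CPM, a change of -1.58 in si-hnRNPK and the only H3 call. All of its 100-base coding windows also occur in an overlapping gene, AL031777.3, and HIST1H3J overlaps HIST1H2AM. HIST2H3D was at 113, 59.6, 102 and 84.5 CPM and HIST1H3J at 84.1, 42.1, 79.1 and 60.03 CPM, with changes of -0.91 and -0.98 in si-hnRNPK. The CPM of HIST1H3J was 50.02% of control (47.6 to 52.6%), so it lay on the threshold within counting error. The summed H3 level in si-hnRNPK was 41.1% of control (40.1 to 42.0%).

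The H4 genes held no call at all, with a median change of -0.69 in si-hnRNPK against -1.35 for H1, -1.06 for H2A, -1.21 for H2B and -0.98 for H3. HIST1H4H was at 208, 105, 204 and 142 CPM, and HIST1H4C at 180.0, 95.7, 195 and 106 CPM. Their changes of -0.98 and -0.90 in si-hnRNPK came close to the threshold. HIST4H4, which lies on chromosome 12 apart from the histone clusters, was at 67.9, 48.8, 81.8 and 45.2 CPM, or 71.9% of control in si-hnRNPK (68.4 to 75.5%), and was lower still in si-PTBP1. HIST1H4J was at 6.79, 5.69, 7.08 and 5.58 CPM, with 83.7% of control in si-hnRNPK (72.1 to 97.3%). Summed, the H4 genes were at 55.2% of control in si-hnRNPK (54.1 to 56.3%), while the sums of the other classes lay between 40.9% for H1 and 45.1% for H2A. The intervals of the H4 sum and of the other 4 sums do not overlap, which concerns counting error in these libraries only. Each of the 15 H4 genes but one encodes the same protein, and HIST1H4J shares its coding sequence with HIST1H4K.

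**Figure D2:**
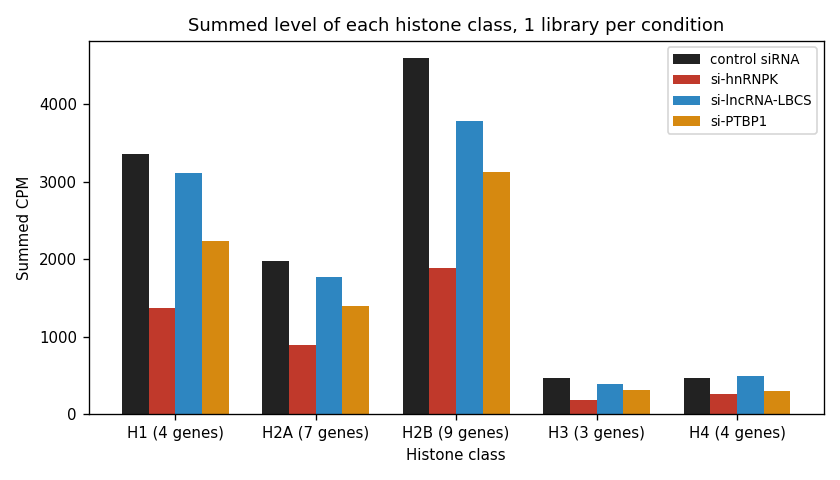
Summed CPM of the histone genes of each class in the 4 libraries, 1 bar per library and with no error bar, since there are no replicates. In every class the si-hnRNPK bar is the lowest, at 40.9% of the control bar for H1 and 55.2% for H4.

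Several genes sat close to the threshold in si-hnRNPK. Just inside it were HIST2H2AB at -1.06 and HIST1H2AG at -1.11. Just outside were HIST1H3J at -0.98, HIST1H2BN at -0.98, HIST1H4H at -0.98, HIST2H3D at -0.91 and HIST1H4C at -0.90. The threshold thus parts genes of near-equal change.

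Levels of different genes were compared as CPM per kilobase of annotated exon. That length differed more than the coding length did. It was 381 bases for HIST1H2BK and 2250 for HIST1H2AG, with coding lengths of 381 and 393. The order of genes therefore depends in part on how far each is annotated beyond its coding sequence. On that scale HIST1H2BK led in control with 3149, followed by HIST1H1E with 1555, HIST1H1B with 1504, HIST1H2AI with 1260, HIST1H1C with 1046 and HIST2H2AC with 939. The same 6 genes were the highest in si-hnRNPK and in si-PTBP1, and 5 of the 6 in si-lncRNA-LBCS, where HIST1H2BD took the place of HIST2H2AC. In si-hnRNPK they ran from 404 for HIST1H2AI to 1377 for HIST1H2BK per kilobase. The make-up of the histone mRNA by class also shifted little, with H1 at 30.9% of the summed CPM in control and 29.9% in si-hnRNPK, H2B at 42.3% and 41.0%, H2A at 18.2% and 19.4%, H3 at 4.26% and 4.13%, and H4 at 4.27% and 5.57%.

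The PTBP1 knockdown gave smaller changes in the same direction. Of the 27 histone genes 26 were below control in si-PTBP1, while 36.5% of all genes were, and the exception was HIST2H2AA3 with 4 and 5 reads. The median change was -0.48, against +0.12 for all genes. No histone gene was lower by 1 or more (0.601% of all genes) and none was higher by 1 or more (2.86%). Median-of-ratios scaling, which put this library 0.13 above control on the log2 scale, made HIST1H1D a call. At 1.5-fold or more, 10 of the 27 were lower, against 3.07% of all genes. The largest changes were those of HIST1H1D (-0.95, to 51.6% of control), HIST1H2AI (-0.83), HIST1H2BJ (-0.80), HIST1H4C (-0.76) and HIST1H2BC (-0.73). The summed level was 7367 CPM, or 68.0% of control (67.7 to 68.2%). For 23 of the 27 genes the si-PTBP1 level lay between those of control and si-hnRNPK, and the share of all genes that did so was not counted. The si-hnRNPK and si-PTBP1 comparisons use the same control library, so their directions are not independent. HNRNPK itself was at 83.8% of control in si-PTBP1, and PTBP1 at 90.4% of control in si-hnRNPK.

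In si-lncRNA-LBCS the histone genes were closer to control. Of the 27, 20 were lower at any size, against 51.6% of all genes, with a median change of -0.14 against -0.01. None was lower by 1 or more (0.961% of all genes), and at 1.5-fold 2 were lower, HIST2H2AC and HIST2H2BF at -0.63, against 5.51% of all genes. One was higher by 1 or more, the uncertain HIST2H2AA3, against 0.36% of all genes. That gene reached 1 CPM in this library alone, so the filter itself favoured the call, and it says nothing about the family. After it, the largest values above control were those of HIST4H4 (+0.27), HIST1H1C (+0.26), HIST1H4C (+0.12) and HIST1H1B (+0.06). The summed level was 9541 CPM, or 88.0% of control (87.7 to 88.3%), and 87.2% without HIST2H2AA3. All 9 H2B genes were below control, from -0.63 for HIST2H2BF to -0.01 for HIST1H2BJ, whereas 3 of the 4 H4 genes were above it. Set against the geometric mean of the other 3 libraries instead of control, the median turned to +0.37. That mean takes in si-hnRNPK and si-PTBP1, where the histone genes were lower, so this value cannot decide the direction against control.

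**Figure D3:**
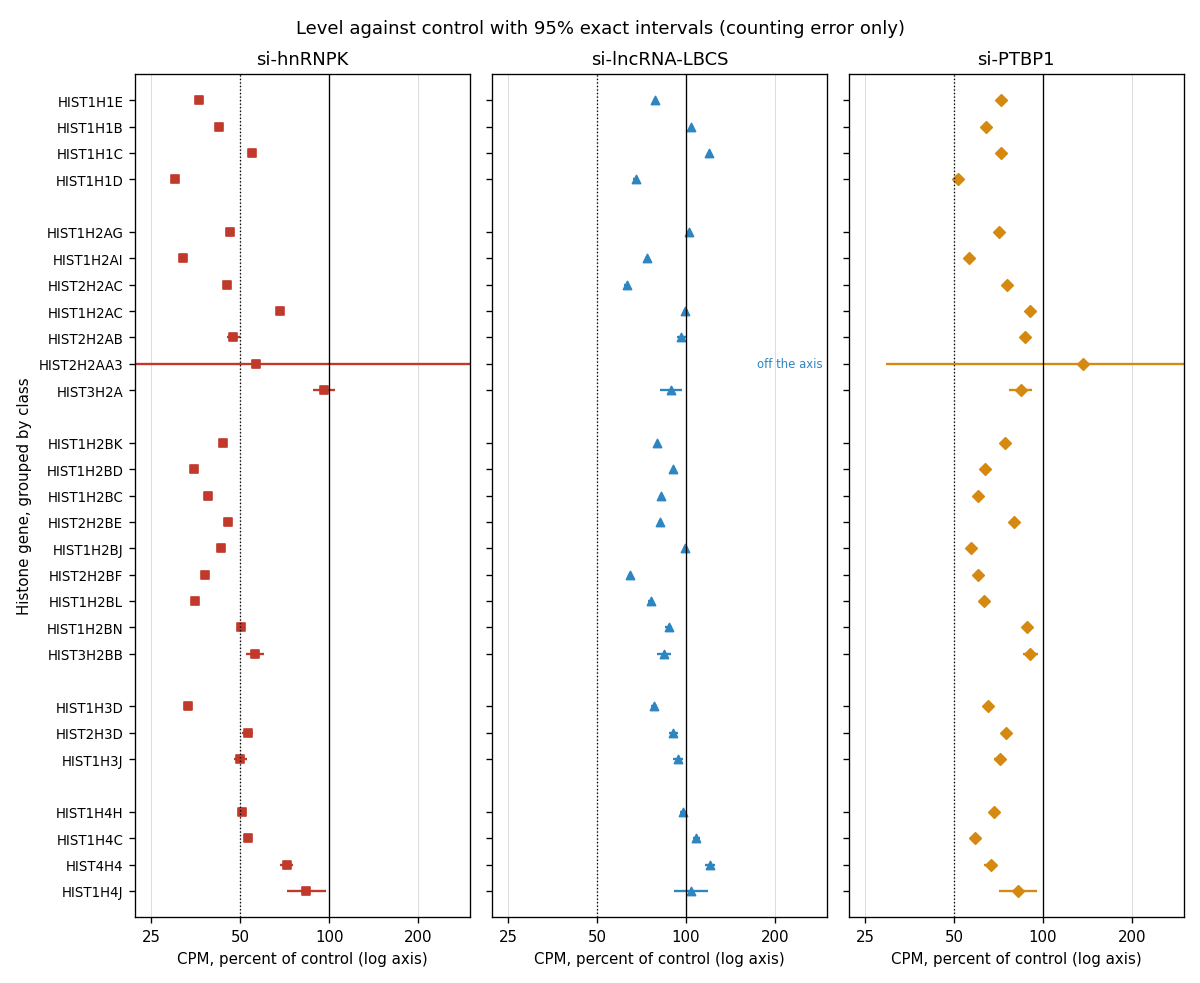
Level of each of the 27 histone genes as a percent of control (log axis) in the 3 knockdown libraries, with 95% exact intervals for counting error. The solid line marks 100% and the dotted line 50%. In si-hnRNPK all points lie left of 100%, from 30.1% for HIST1H1D to 96.2% for HIST3H2A, and HIST2H2AA3 is off the axis in si-lncRNA-LBCS.

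Across the 4 libraries 16 of the 27 genes followed 1 order, control above si-lncRNA-LBCS above si-PTBP1 above si-hnRNPK. A further 4 had si-lncRNA-LBCS above control and the rest unchanged. The share of all genes with these orders was not counted, and si-hnRNPK was the lowest library for 43.6% of all genes. How particular the orders are to histone genes is therefore not known. Besides HIST3H2A, the genes that were lowest in si-PTBP1 and not in si-hnRNPK were the H4 genes HIST4H4 and HIST1H4J. For HIST1H4J those levels were 5.58 and 5.69 CPM, with overlapping intervals of 70.7 to 95.4% and 72.1 to 97.3% of control.

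Many H2A and H2B genes lie head to head on a shared promoter, and the pairs show how far neighbours moved together. Among the 71 genes there were 12 head-to-head pairs with starts 218 to 356 bases apart, 11 of them of an H2A with an H2B gene, and 5 had both members at the filter. HIST1H2BL and HIST1H2AI changed by -1.50 and -1.63 in si-hnRNPK, HIST2H2BE and HIST2H2AC by -1.14 and -1.15, and HIST1H2BJ and HIST1H2AG by -1.21 and -1.11. The other 2 pairs split. HIST1H2BC changed by -1.36 and its partner HIST1H2AC by -0.55, and HIST3H2BB by -0.80 against -0.05 for HIST3H2A. The intervals of the partners do not overlap in either of these pairs, at 38.2 to 39.6% of control against 66.6 to 69.9%, and at 52.4 to 60.2% against 88.3 to 105%.

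Promoters from RefSeq (GRCh38.p14), from 250 bases before to 50 bases after the start, were matched for 61 of the 71 genes and 22 of the 27. The octamer ATTTGCAT, which is bound by the factor OCT1, was looked for on both strands, as were CCAAT and TATAAA, none of which contains another. The octamer was in 11 of 16 H2A and 12 of 15 H2B promoters, in none of the 6 H1, 11 H3 and 13 H4 promoters, and in 1.77% of all 35116 promoters. CCAAT was in 51 of the 61 (34.6% of all promoters) and TATAAA in 40 of the 61 (11.5% of all). Of the 13 H4 promoters 3 held CCAAT, against every matched promoter of the other classes. A stretch of 60 bases around the octamer is shown for a pair that moved together and a pair that split, on each gene's own strand with the motifs in capitals:
HIST1H2BJ: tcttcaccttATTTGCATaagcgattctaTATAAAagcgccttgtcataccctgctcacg
HIST1H2AG: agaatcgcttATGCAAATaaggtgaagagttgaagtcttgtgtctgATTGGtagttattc
HIST1H2BC: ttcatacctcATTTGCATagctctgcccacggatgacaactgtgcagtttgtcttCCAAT
HIST1H2AC: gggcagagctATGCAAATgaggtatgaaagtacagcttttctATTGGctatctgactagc
The stretches lie at chr6:27132793-27132852 (minus), chr6:27132825-27132884 (plus), chr6:26124000-26124059 (minus) and chr6:26124032-26124091 (plus). In each pair both genes read the same 8 bases, at chr6:27132835-27132842 and chr6:26124042-26124049, from opposite strands. The 8 H2A and H2B genes at the filter with an octamer had a median change of -1.14 in si-hnRNPK (7 lower by 1 or more), and the 6 with a matched promoter and no octamer -0.89 (2 lower by 1 or more), the latter including HIST2H2AA3 and the genes named HIST3. The octamer is present in both HIST1H2BJ and HIST1H2AC, whose changes differ. Without an octamer, HIST1H2AI and HIST1H2BL changed by -1.63 and -1.50 in si-hnRNPK, while the value of HIST2H2AA3 there rests on 2 reads. Whether the octamer has a part in these changes was not tested.

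The histone genes were also set side by side by other shared features. The 15 genes with a stem-loop match had a median of -0.98 in si-hnRNPK, with 7 lower by 1 or more, and the 12 without one -1.17, with 8. Of those 12, 9 had fewer than 26 annotated bases after the stop codon, and all H1 and H3 genes were among them or the rest of the 12. The split thus follows annotation and class, and cannot tell what the stem-loop itself goes with. Of the 27 genes, 16 had no 100-base stretch of coding sequence in common with any other annotated gene, so reads that lie wholly in it are theirs alone. Their median change in si-hnRNPK was -1.09, with 9 of 16 lower by 1 or more, and that of the 11 others -1.14, with 6 of 11. A protein identical to that of another member is encoded by 11 of the 27, with a median of -0.98 and 4 lower by 1 or more, while the 16 with a protein of their own had a median of -1.17 and 11 lower by 1 or more. For the 13 genes that neither share such a stretch nor overlap another gene the median was -1.11.

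The replication-independent histone variants are expressed outside S phase and carry poly(A) tails in most cases. Of 12 such genes 11 were at the filter, and their median change in si-hnRNPK was -0.37, above that of the 27 histone genes and below the -0.10 of all genes. H2AFX, which marks DNA breaks when phosphorylated and has both forms of mRNA end, was at 185, 79.8, 127 and 134 CPM. It was the only variant lower by 1 or more in si-hnRNPK (-1.20), where 3.8% of all genes were. H2AFZ was at 171, 106, 221 and 114 CPM. H2AFJ was at 17.1, 27.6, 29.7 and 34.8 CPM, above control in all 3 knockdown libraries (+0.66, +0.76 and +0.98). So were the linker variants H1F0 (102%, 117% and 135% of control) and H1FX (106%, 114% and 114%). In si-hnRNPK these 2 changed by only +0.03 and +0.08, and no interval was computed for them. The other 8 variants were below control there, among them H2AFV (-0.87) and CENPA (-0.86). H3F3A, an H3.3 gene, was at 92.0, 78.7, 96.3 and 94.6 CPM. The list's medians in si-lncRNA-LBCS and si-PTBP1 were +0.07 and -0.06, with no call.

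The genes that act on histone mRNA changed less than the histone genes themselves. Of 30 genes of histone mRNA transcription, 3' processing and decay, 28 were at the filter. Their median in si-hnRNPK was -0.34 (-0.10 for all genes), with 3 lower by 1 or more (3.8% of all genes) and none higher (3.42%). SLBP was at 72.4, 58.4, 72.6 and 60.5 CPM, and NPAT at 71.5, 54.2, 69.6 and 61.7 CPM, changes of -0.31 and -0.39 in si-hnRNPK. CASP8AP2 (FLASH), a part of the processing complex, changed by -0.72, from 76.9 to 46.3 CPM. LSM10 and LSM11, the ring proteins particular to the U7 particle, were at 5.95 and 20.3 CPM in control and 2.19 and 12.7 CPM in si-hnRNPK, or -1.12 and -0.63. The other calls were SNRPD3, a ring protein of both U7 and spliceosomal particles (-1.06), and CCNE2, a cyclin E that activates CDK2 (-1.22). ZNF473, ERI1 and UPF1 changed by -0.14, -0.19 and -0.39. LSM10 was also at 2.86 CPM in si-lncRNA-LBCS and at 7.63 CPM in si-PTBP1, so it did not follow the histone genes across the libraries. Among 24 histone chaperone and import genes the median was -0.43, and HJURP, the chaperone of CENPA, was the only call, from 161 to 60.7 CPM (-1.39). With 1 call among 24 genes, that list lay near the 3.8% of all genes lower by 1 or more.

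Genes of DNA replication in S phase moved with the histone genes. All 41 at the filter were below control in si-hnRNPK (58.3% of all genes), 15 of them by 1 or more (3.8% of all genes), with a median of -0.86. The 5 lowest were TYMS (-1.84), MCM4 (-1.67), CLSPN (-1.66), CDC45 (-1.54) and LIG1 (-1.34). PCNA, the replication clamp, went from 418.5 to 239 CPM, or -0.81. The same list had medians of -0.15 in si-lncRNA-LBCS and -0.22 in si-PTBP1, where 34 and 36 of the 41 were below control (51.6% and 36.5% of all genes) and none was lower by 1 or more. The histone medians beside these were -1.11, -0.14 and -0.48. No measure of the cell cycle is in these data, and the part of the share of cells in S phase in the histone levels was not tested.

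**Figure D4:**
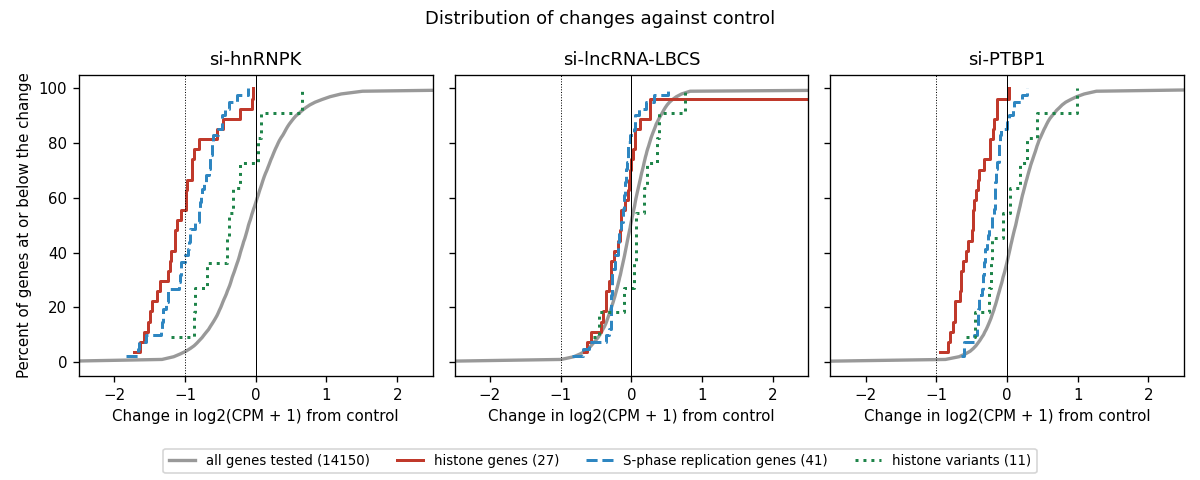
Cumulative share of genes (percent) at or below a given change in log2(CPM + 1) in each knockdown library, for all 14150 genes, the 27 histone genes, 41 S-phase replication genes and 11 replication-independent variants. In si-hnRNPK the histone curve (median -1.11) lies left of that of all genes (-0.10) and in si-PTBP1 left of +0.12, with the S-phase genes between, at -0.86 and -0.22.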

How the data were processed

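Total RNA of UM-UC-3 cells was sequenced as 100-base paired-end reads, with 1 library for each condition. The authors deposited CPM per Ensembl gene, and the submitters' processing notes name the build hg19; the aligner, counter and annotation are not given in the sources used here. The deposited CPM were whole multiples of 1 read (100% within 0.01 read), which gave the reads. Genes without reads carry a placeholder (0.5 read in the knockdown tables, 0.0046 in the control table). Symbols and GRCh38 positions were matched by identifier to GENCODE release 29, and 1873 of 27629 identifiers matched none and were not used here. Changes are differences in log2(CPM + 1), which understate those of low genes, called at 1 without a test. Genes had to be listed in all 4 tables and to reach 1 CPM in one of them. Intervals are 95% exact Clopper-Pearson. Without strand information, reads of overlapping genes cannot be told apart. Named are members at 10 CPM or more, up to 6 per class, those past the threshold, the 5 extremes per knockdown, the targets, 8 regulators and listed genes past the threshold, with further genes chosen after their values were seen. The members and gene lists were chosen with earlier results of these data known. On simulated reads of 14150 genes for si-hnRNPK, 99% of 100 genes raised 4-fold and 83% of 100 lowered 4-fold were called, and 100% of those lowered at 10 CPM or more. Of the list of RNAs without a poly(A) tail, 3 of 13 were at the filter, and RNU4-2 was lower by 1.17 in si-lncRNA-LBCS. The calculations ran in scipy 1.17.1, pandas 2.3.3 and numpy 2.4.6 under Python 3.11.15, and matplotlib 3.10.9 drew the plots.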

Additional observations from a re-analysis of the deposited data

How the results depend on the processing

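In si-hnRNPK the median and the sum of the histone genes stayed below control under every alternative run, or below the reference that replaced it. HIST3H2A alone was above control after median-of-ratios scaling, and above the geometric mean of the other libraries where that was the reference. As for counts, 8 were lower by 1 or more against the geometric mean of the other 3 libraries, and 9 of 16 among those with no shared 100-base stretch, an alternative chosen after seeing the data, as was leaving out HIST2H2AA3. The median was -1.06 without a filter, -1.0 with median-of-ratios scaling, -0.93 against the geometric mean and -1.09 for those with no shared stretch. The sum was 45.7% of control with median-of-ratios scaling, 42.7% for those with no shared stretch and 43.1% without the 3 highest genes, and 50.2% of the geometric mean. In si-lncRNA-LBCS, 2 were lower at 1.5-fold, and 0 were higher without HIST2H2AA3 or among those with no shared stretch. The median there was +0.37 against the geometric mean, -0.22 without members of identical protein and -0.042 for those with no shared stretch. The sum was 88.6% with median-of-ratios scaling, 133% of the geometric mean, 88.6% without the 3 highest genes, 87.2% without HIST2H2AA3 and 93.1% with no shared stretch. In si-PTBP1, 1 was lower with median-of-ratios scaling and 10 at 1.5-fold. The median was -0.60 with that scaling, -0.12 against the geometric mean, -0.45 without members of identical protein and -0.56 with no shared stretch. The sum was 62.3% of control with that scaling, 66.4% with no shared stretch and 66.9% without the 3 highest genes, and 94.48% of the geometric mean. A pseudocount of 0.1, a filter of 5 CPM and a call that also needs an interval without 1 left each count as it was. The pseudocount does not enter the sums. No paired analysis was possible because each condition has 1 library, and for the same reason no replicate could be left out. The causes of these shifts were not tested.

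Single libraries limit every value: the intervals hold counting error and nothing of the spread between cultures. At 54301152 reads or more, counting error was small for genes above 10 CPM, wider for HIST1H4J, and very wide for HIST2H2AA3, which had 4 reads in control. How reads of near-identical histone genes were divided between copies is not given in the sources used here, and 37 of the 71 genes are not analysed here.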

Other observations

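Of the 19 pseudogenes named like the histone genes, 10 were listed in the tables and 4 reached 1 CPM in a library. HIST2H2BC was at 16.1 CPM in control, 11.2 in si-hnRNPK, 14.4 in si-lncRNA-LBCS and 16.98 in si-PTBP1, or 69.6% of control in si-hnRNPK (62.8 to 77.1%). HIST1H2APS5 was at 2.93, 1.47, 1.95 and 1.96 CPM in the same order, HIST1H2APS4 at 1.76, 0.829, 1.85 and 1.82 CPM, and HIST1H4PS1 at 1.21, 0.608, 0.940 and 1.03 CPM. All 4 were lowest in si-hnRNPK, with 33 to 608 reads there.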
